A study of Solanum lycopersicum with 12 samples.

Results

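Light-harvesting chlorophyll a-b binding proteins were followed at the transcript level in tomato fruit wall. Members were all genes whose deposited description names a chlorophyll a-b or a/b binding protein, in any spelling of that phrase, and that held at least 10 counts in 3 or more libraries. Of 35882 features in the count table, 41 carried such a description and 34 of these reached the count minimum. The 7 others held between 0 and 36 counts over all libraries, and 2 of them held none. All 34 members passed the low-count filter of the test over all genes, which kept 19664 genes. Of the 34, 24 held at least 10 counts in each of the 12 libraries, and 4 reached 10 counts in mature green libraries only.

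Pericarp of a mutant called cr and of a wild type labelled A (WT) was collected at breaker (38) and at mature green (35), giving cr breaker, WT breaker, cr mature green and WT mature green, with 3 libraries each. Breaker is the point at which a ripening tomato begins to lose its green colour. The labels do not name the gene altered in cr, so the mutation could not be checked in the libraries, and they do not say what 35 and 38 count. Whether each library stands for its own plant or harvest is likewise unstated, and the p-values therefore reflect variation between libraries that may be technical. Library totals were 17703054 to 19426192 counts.

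Antenna proteins hold chlorophyll a and b in the thylakoid membranes of the chloroplast and pass absorbed light energy to the reaction centres. Trimers of the major antenna complex, LHCII, and the monomeric minor proteins CP29, CP26 and CP24 surround photosystem II, while the Lhca proteins form a belt on photosystem I. Green fruit carries chloroplasts with these complexes, and the chloroplasts become carotenoid-storing chromoplasts as a tomato ripens.

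Sorted by their Swiss-Prot matches, 14 members were of the major LHCII type, 4 were minor photosystem II antenna proteins, 7 were photosystem I antenna proteins and 1 was LHCB7, a rarer relative. The remaining 8 were kept apart from these. Among them, 5 were relatives of the antenna family, namely PSBS, which acts in the dissipation of excess light energy, LIL3.1 and LIL3.2, which act in chlorophyll synthesis, and a pair of OHP2 genes, which encode small proteins with a single membrane helix. A further 3 had a mixed description, in which an antenna match stands beside the name of another protein class. They are called here by that class, as B-box-type, CysRS-type and RCC1-type. The Swiss-Prot match of B-box-type is CAB6A, a photosystem I antenna protein, so by that match alone it would count with the photosystem I antenna.

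Several members lie side by side on the SL4.0 build. The 7 CAB1B-type genes occupy 19.8 kb of chromosome 2 (38517238 to 38537070), the 3 CAB3C-type genes occupy 6.17 kb of chromosome 3 (542669 to 548836), and CP24 10A and CP24 10B lie within 7.03 kb of chromosome 1 (85633660 to 85640691). The sources used here do not tell how multi-mapping reads were counted. Reads may therefore have been split between the copies of a cluster, and values of single copies are uncertain. RCC1-type Solyc10g007680.5 overlaps CAB8 Solyc10g007690.3 on the opposite strand of chromosome 10, and without a stated strand setting their reads cannot be told apart.

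In WT, antenna transcripts were much lower at breaker than at mature green. Of the 34 members, 27 were lower and 3 were higher at breaker, where 24.9% and 23.4% of all genes tested were lower and higher (edgeR's quasi-likelihood test, Benjamini-Hochberg adjusted p under 0.05). In all, 30 members and 48.3% of all genes were called. The breaker and mature green libraries of WT did not overlap for 26 members that were lower and 4 that were higher, as for 28.6% and 27.5% of all genes. All 14 major LHCII genes, all 4 minor antenna genes, 5 of 7 photosystem I antenna genes and all 3 genes of mixed description were lower. Of the 14, 4 CAB1B-type copies reached the count minimum in mature green libraries only, so they had to be lower at breaker and lend no support to these counts. Without them, a choice made after seeing the data, 23 of 30 members and 10 of 10 major LHCII genes were lower, with a median of -2.48 over the 30. The 3 that were higher were OHP2 on chromosome 12, LIL3.1 and LHCB7. The median member changed by -2.99 on the log2 scale, against 0.00 for all genes tested. In bulk tissue, fewer cells holding these transcripts and less transcript per cell cannot be told apart.

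In cr the same stage difference was present, with 26 members lower and 1 higher at breaker, where 13.5% and 15.2% of all genes were lower and higher, 28.7% in all. The libraries did not overlap for 27 lower and 2 higher members, as for 22.2% and 22.9% of all genes. The lower ones were 13 of the 14 major LHCII genes, all 4 minor antenna genes, 5 of 7 photosystem I antenna genes, 3 of 5 antenna relatives and B-box-type. Among these relatives, OHP2 on chromosome 4 was called at -0.36 ± 0.13 (adjusted p = 0.04889), a call lost on leaving out any of 8 libraries (adjusted p = 0.171 without cr breaker replicate 2). The higher one was OHP2 on chromosome 12. The median change was -1.57, against -0.00 for all genes tested. Without the same 4 copies, 22 of 30 members and 9 of 10 major LHCII genes were lower in cr, with a median of -1.07 over the 30. Between the genotypes, 24 members were lower at breaker in both, 3 in WT alone by this threshold and 2 in cr alone. Of the 24, 22 had the smaller fitted change in cr. The shares of all genes for these counts were not taken, so they are not read as particular to the members. Of all genes tested, 48.3% were called in the WT stage change, against 28.7% in cr. The first principal component of all genes tested held 63.7% of the variance. On it WT libraries lay at -61.2 to -39.9 at mature green and at 94.9 to 106 at breaker. The cr libraries lay at -78.7 to -65.2 and at -4.25 to 31.9. The 24 and the 22 include the same 4 copies, which lend no support to either count. For Solyc02g070970.1, one of these copies, the drop was 36.3-fold in cr and at least 12.1-fold in WT, so the order is not known.

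Whether the stage change itself differed between the genotypes was tested with the genotype by stage interaction, here the breaker minus mature green change in cr minus that in WT. It was above 0 for 26 of 34 members, and 8 members were called, all with a positive value, where 8.53% of all genes were called positive and 4.62% negative, 13.1% in all. With 0 members called negative by edgeR, 4 had a negative value at an unadjusted p under 0.05. DESeq2 called 0 negative and called more members positive than edgeR did. The shares of all genes above 0, at that unadjusted level and with DESeq2 were not counted. Those member counts are therefore not read as particular to the members. The 8 were CAB3C-type Solyc03g005760.1, CAB4, CP24 10A, CP24 10B, CAB7, LHCA4, CAB8 and B-box-type, which thus come from each of the 3 antenna complexes and from the mixed group. The median interaction was 1.47, against 0.03 for all genes tested. The 4 CAB1B-type copies that reached the count minimum in mature green libraries only are among the 26 and lend no support to that count. Without them, 8 of 30 members were called positive, with a median of 1.36 over the 30. The stage changes and the interaction use the same libraries and are not independent of each other.

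At breaker, cr fruit held more antenna transcript than WT fruit. Members numbered 15 higher and 2 lower in cr, where 14.0% and 11.0% of all genes were higher and lower, 25.0% in all. The libraries of cr and WT did not overlap for 16 higher and 3 lower members, as for 19.3% and 19.0% of all genes. The 15 were 6 of 14 major LHCII genes, 3 of 4 minor antenna genes, 5 of 7 photosystem I antenna genes and B-box-type. The 2 lower ones, OHP2 on chromosome 12 and LIL3.1, are antenna relatives and were among the 3 that were higher at breaker in WT. The median difference was 1.39 on the log2 scale, or 1.23 with 2 genes at 0 in WT breaker set to their bound and 1 left out, against 0.00 for all genes tested.

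At mature green, PSBS was the only member called different between cr and WT by edgeR over all 12 libraries. Among all genes 4.34% were called, 1.72% higher and 2.62% lower in cr. For the other 33 members the test did not reach its threshold, which does not show that they were alike. With 0 members called lower by edgeR, 3 were lower at an unadjusted p under 0.05 and DESeq2 called 0, and 6 were higher at that unadjusted level. DESeq2, and edgeR on only the 2 groups compared, each called more members higher, and the latter also called some lower. The shares of all genes at the unadjusted level and in these 2 runs were not counted. Those member counts are therefore not read as particular to the members. The 2 genotypes' libraries did not overlap for 7 members that were higher in cr and 3 that were lower, where the same held for 12.5% and 14.7% of all genes. The median difference was 0.18, against -0.01 for all genes tested.

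**Figure D1:**
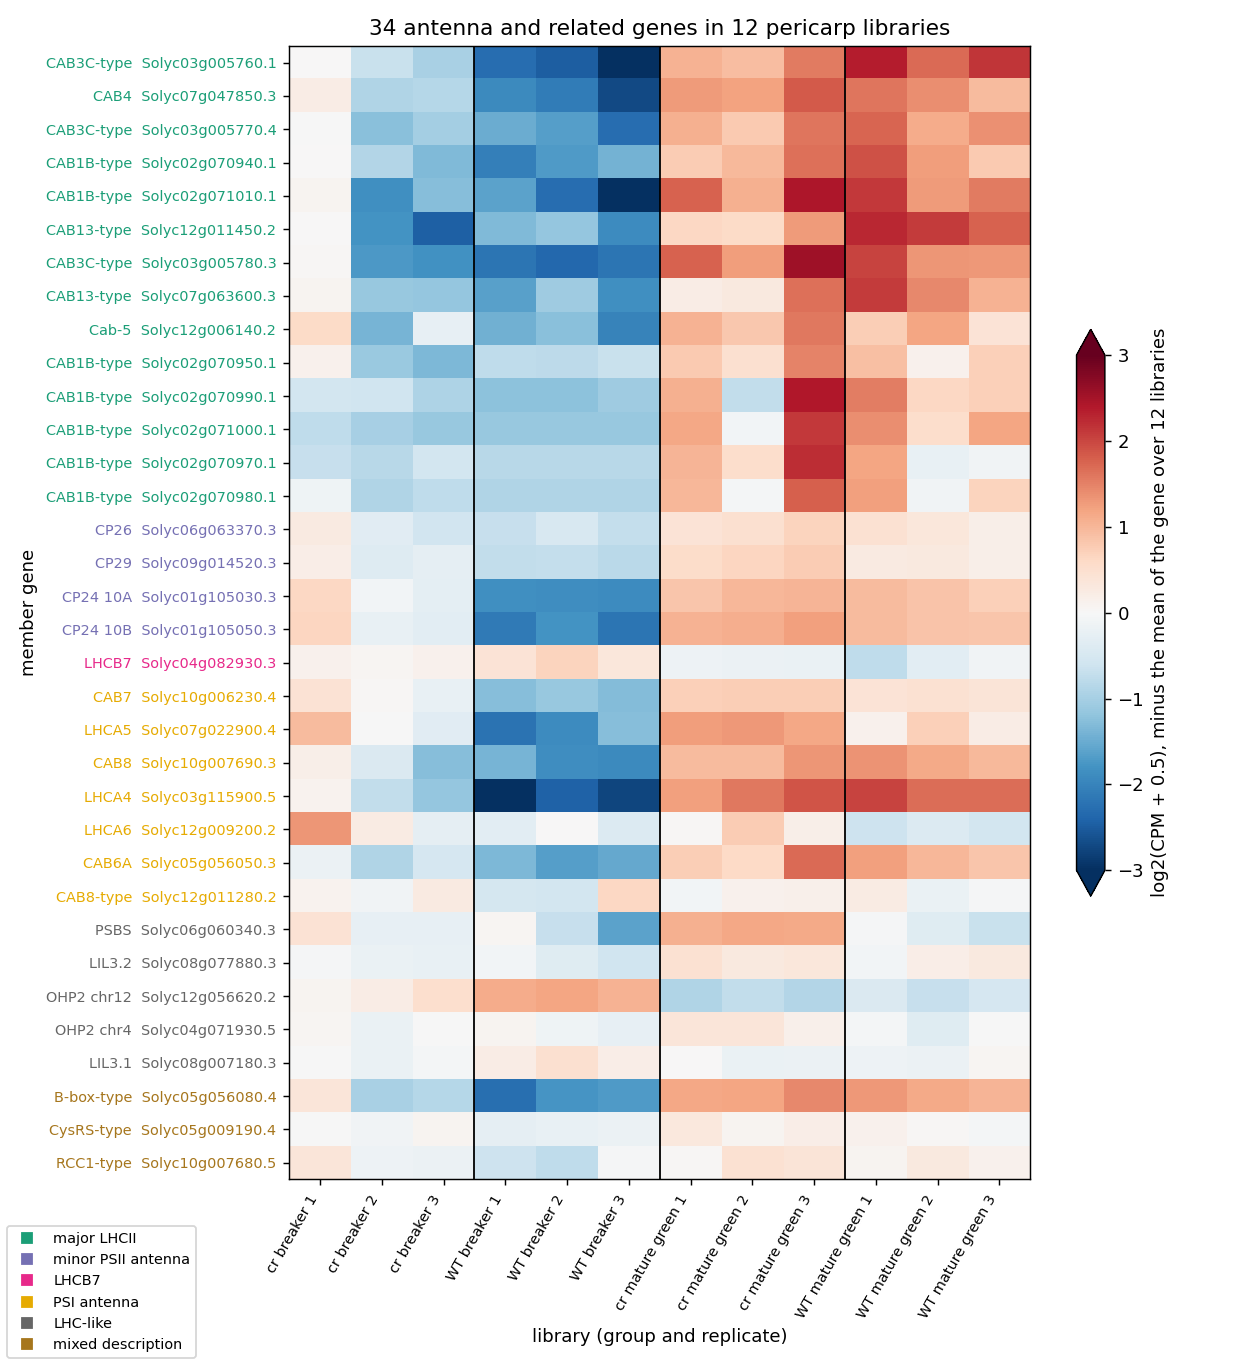
Level of each of the 34 members in each of the 12 libraries, as log2(CPM + 0.5) minus the gene's mean over all libraries (colour), with genes running down the side by class and libraries across in their 4 groups. Most major LHCII, CP24 and photosystem I antenna genes are lowest in the 3 WT breaker columns, and OHP2 on chromosome 12 is highest there.

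**Figure D2:**
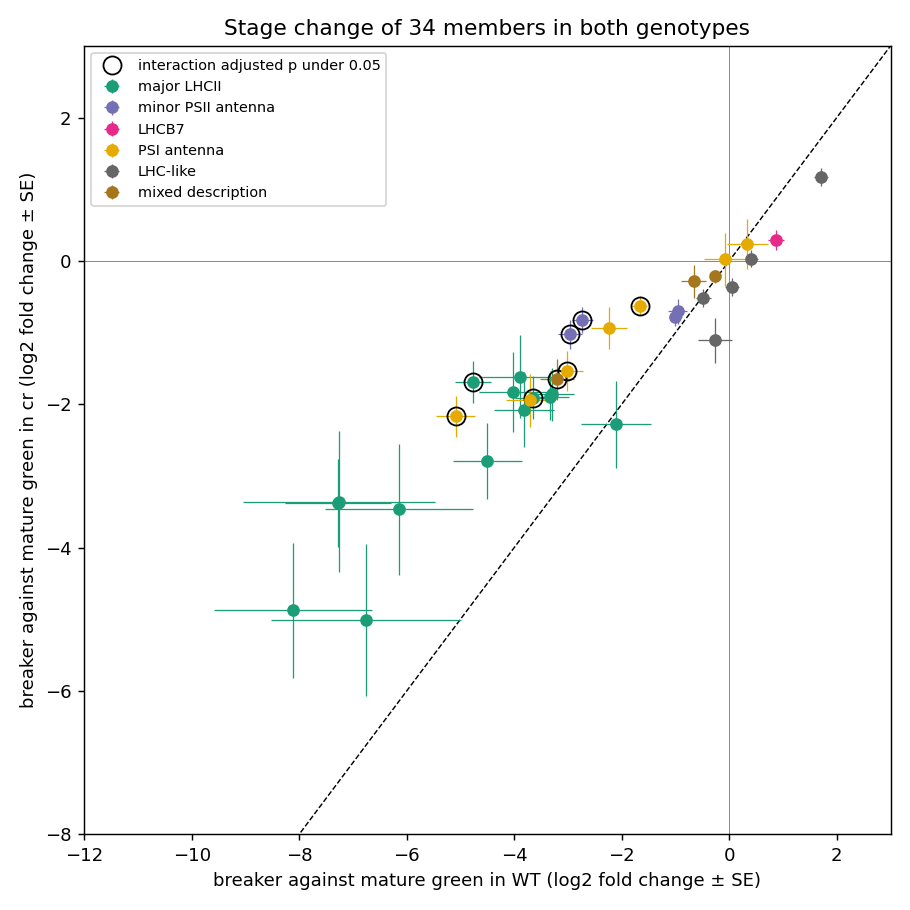
Log2 fold change of breaker over mature green in WT (horizontal axis) and in cr (vertical axis) for the 34 members, with standard errors, the dashed line marking equal changes, and rings marking the 8 members whose interaction had an adjusted p under 0.05. Of the 34 points, 26 lie above the dashed line, among them the 4 copies that reached the count minimum in mature green libraries only. The fitted values of genes at or near 0 counts in WT breaker are not bounds.

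Class sums give the amount of transcript, and a sum can be carried by 1 or a few genes. The 14 major LHCII genes summed to 176, 90.2 and 79.9 CPM in the cr breaker libraries, against 38.5, 35.1 and 21.6 CPM in the WT breaker libraries (CPM here is the TMM-scaled count divided by library size in the usual unit). The same sum was 372, 331 and 565 CPM in cr mature green libraries, against 756, 502 and 585 CPM in WT mature green libraries. Every cr breaker library thus lay above every WT breaker library, while the mature green groups overlapped. The breaker mean was 27.3% of the mature green mean in cr and 5.17% in WT. Without cr breaker replicate 1, the highest of the 3, the cr value was 20.1%.

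The minor antenna genes of photosystem II summed to 590, 375 and 350 CPM in cr breaker libraries, against 233, 253 and 225 CPM in WT breaker libraries. At mature green they summed to 707 to 819 CPM in cr and 593 to 683 CPM in WT. At breaker 57.7% of the mature green mean was left in cr and 37.0% in WT. Gene by gene, the WT value was 15.1% for CP24 10A and 12.9% for CP24 10B, but 51.5% for CP26 and 50% for CP29. The photosystem I antenna sum was 382, 269 and 222 CPM in cr breaker libraries, against 107, 117 and 109 CPM in WT breaker libraries, again without overlap. That left 59.9% of the mature green mean in cr and 27.9% in WT. CAB7 alone made up 83.3% of this sum in cr breaker, 85.9% in WT breaker, 77% in cr mature green and 76.1% in WT mature green, and without it 43.6% was left in cr and 16.5% in WT. Without cr breaker replicate 1 the cr percentages were 47.7% for the minor antenna and 50.6% for the photosystem I antenna.

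**Figure D3:**
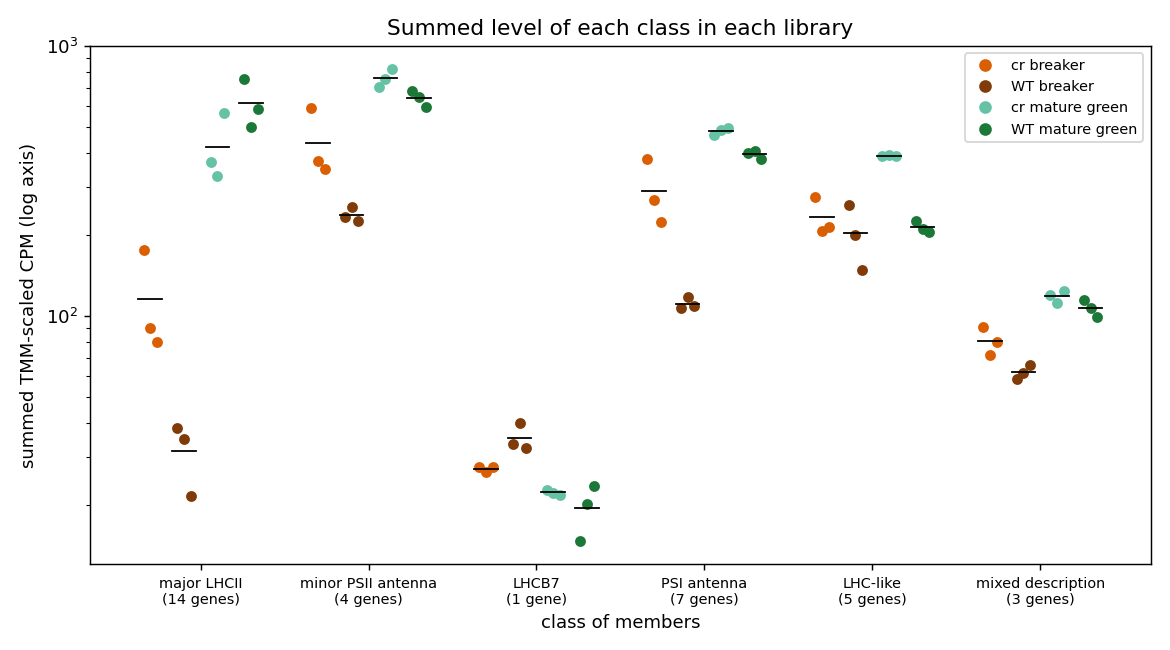
Summed TMM-scaled CPM of each class in each library (points) with the group mean (line), on a log axis, for cr breaker, WT breaker, cr mature green and WT mature green. The major LHCII sum of the WT breaker libraries (21.6 to 38.5 CPM) lies below that of the other 3 groups, and the cr breaker libraries lie between 79.9 and 176 CPM.

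On the length-corrected FPKM scale of the authors' table, the composition of the member transcripts shifted with stage. The shift was smaller in cr than in WT for major LHCII, the photosystem I antenna, the antenna relatives and LHCB7. Major LHCII genes held 11.5% ± 2.25 of the summed member FPKM in cr breaker fruit, 4.80% ± 0.949 in WT breaker fruit, 23.7% ± 4.65 in cr mature green fruit and 37.3% ± 4.68 in WT mature green fruit (mean ± SD, n = 3). The photosystem I antenna held 19.9% ± 1.56 in cr breaker fruit, against 11.7% ± 1.15 in WT breaker fruit. At mature green it held 18.6% ± 1.29 in cr and 16.1% ± 1.42 in WT. The antenna relatives held 20.8% ± 2.13 in cr breaker fruit, against 29.1% ± 4.57 in WT breaker fruit. At mature green they held 18.1% ± 1.73 in cr and 10.6% ± 0.404 in WT, so the genotypes already differed there. The largest mean share in WT breaker fruit thus went to relatives that do not form the main antenna, and the share of the minor antenna stayed between 21.9 and 31.7% in all 12 libraries. LHCB7 held 14.0% ± 2.86 in cr breaker fruit and 26.6% ± 2.35 in WT breaker fruit. At mature green it held 6.19% ± 0.662 in cr and 5.78% ± 1.67 in WT. However, its gene model is 177 bases long, so its FPKM, and every share that includes it, rests on a very short length.

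**Figure D4:**
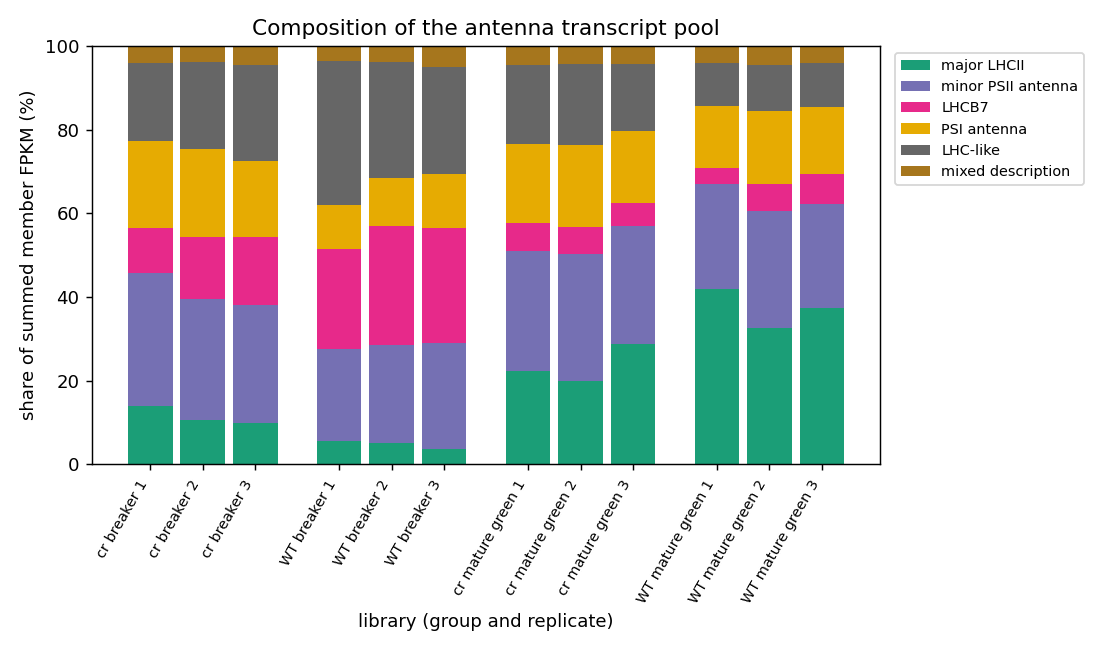
Share of the summed FPKM of the 34 members held by each class in each library, as stacked bars that add up to 100%. Major LHCII holds 3.75 to 5.61% in WT breaker libraries, 9.79 to 14.0% in cr breaker libraries and 19.9 to 41.9% in mature green libraries.

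The most abundant major LHCII gene was CAB3C-type Solyc03g005760.1 (chromosome 3, 542669 to 543472, minus strand). Such genes encode Lhcb1-type proteins, the main building block of LHCII trimers. It had 92.4, 57.7 and 46.2 CPM in cr breaker libraries, against 18.3, 16.1 and 8.60 CPM in WT breaker libraries. It had 190, 173 and 271 CPM in cr mature green libraries, against 474, 298 and 404 CPM in WT mature green libraries. At breaker every cr library was above every WT library, and at mature green every cr library was below every WT library. The breaker difference between cr and WT was 2.19 ± 0.31 (log2 fold change ± SE, adjusted p = 0.0002995), whereas that at mature green, -0.89 ± 0.28, did not pass the test (adjusted p = 0.1011). Its stage change was -1.69 ± 0.29 in cr and -4.77 ± 0.34 in WT, and the interaction of 3.08 ± 0.42 (adjusted p = 0.0006725) was the largest that was called among the members.

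By mean FPKM in WT mature green fruit this gene ranked first among the members, with 484 FPKM, ahead of CAB7 with 228 and CP26 with 160 FPKM. In cr mature green fruit CAB7 ranked first with 282 FPKM and the CAB3C-type gene second with 261 FPKM. At breaker the gene was among the top 3 in neither genotype. CAB7 led in cr with 181 FPKM and, leaving aside the very short LHCB7 model, CP26 led in WT with 82.5 FPKM.

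The third copy of the cluster, Solyc03g005780.3 (547508 to 548836), was far lower and had 42, 5 and 4 counts in cr breaker libraries, against 1, 0 and 1 counts in WT breaker libraries. Mature green libraries held 166, 113 and 295 counts in cr, against 193, 112 and 105 counts in WT. Replicate 1 supplied most of the counts in cr breaker, and nearly none were left in WT breaker. In cr against WT at breaker the ratio was 23 (95% interval 6.04 to 195, counting error only), and the call (adjusted p = 0.02415) was lost without cr breaker replicate 1 (adjusted p = 0.163) and without any 1 of the WT breaker libraries (0.0577 to 0.0858). The stage change in WT was a 182-fold drop at breaker (interval 50.1 to 1510). The middle copy, Solyc03g005770.4, was also higher in cr at breaker (1.19 ± 0.36, adjusted p = 0.02637) and lost that call without cr breaker replicate 1, where the value was 0.69 (adjusted p = 0.154), and without WT breaker replicate 2 or 3 (0.0619 and 0.0924).

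With the counts of the 3 CAB3C-type copies added before the fit, so that a split of reads between them no longer mattered, the stage change was -1.76 ± 0.30 in cr and -4.55 ± 0.34 in WT. The interaction of the summed cluster was 2.79 ± 0.43 (adjusted p = 0.001385), and cr exceeded WT at breaker by 2.01 ± 0.31 (adjusted p = 0.0005726). This alternative was chosen after seeing the data.

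The 7 CAB1B-type copies, likewise Lhcb1-type, were lower in abundance and less alike. Solyc02g070940.1, the most abundant of them, had 10.4, 5.36 and 3.80 CPM in cr breaker libraries, against 2.08, 2.80 and 3.51 CPM in WT breaker libraries. That difference was 1.23 ± 0.42 (adjusted p = 0.0498), and 0.71 (0.267) without cr breaker replicate 1, with the call lost on leaving out any of 8 libraries. At the other end, the 4 copies noted above reached 10 counts in mature green libraries only, 3 of them had no count in any WT breaker library, and none of the 7 had an interaction that passed the test.

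Solyc02g071000.1 (38533832 to 38534629), one of those 3, had 3, 1 and 0 counts in cr breaker libraries and 0, 0 and 0 in WT breaker libraries. At mature green it had 40, 11 and 89 counts in cr libraries, against 47, 21 and 37 counts in WT libraries. No breaker library of either genotype thus held more than 3 counts of this copy. In WT it was at least 31.1-fold lower at breaker, taking the floor as 3 counts over the group, and in cr its fitted change was -4.88 ± 0.94. Since it entered the members through mature green libraries alone, these are descriptions of its level. Solyc02g070970.1 (38526651 to 38527448) had 1, 0 and 2 counts in cr breaker libraries and 0, 0 and 0 in WT breaker libraries. At mature green it had 27, 16 and 76 counts in cr libraries, against 30, 5 and 6 counts in WT libraries. Its drop in cr was 36.3-fold (interval 12.1 to 179), and in WT it was at least 12.1-fold lower, where 30 of the 41 mature green counts came from replicate 1. It too entered through mature green libraries alone, and limma on log2(FPKM + 1) did not call its WT change (adjusted p = 0.0725).

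Summed over the 7 copies, the stage change of the CAB1B-type cluster was -2.42 ± 0.40 in cr and -3.74 ± 0.45 in WT. Its interaction, 1.33 ± 0.59, did not pass the test (adjusted p = 0.1612), while cr exceeded WT at breaker by 1.39 ± 0.46 (adjusted p = 0.03965). The ratio of the mean sums of cr and WT at breaker was 2.61, and 1.64 without cr breaker replicate 1, and the breaker percentage of mature green in cr was 18.6%, and 11.7% without that library. The CAB1B-type sum of WT breaker was even, at 4.09 to 4.24 CPM, whereas that of cr breaker ran from 6.47 to 19.0 CPM.

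CAB4 (Solyc07g047850.3, chromosome 7), another LHCII apoprotein, had 35.0, 15.8 and 16.3 CPM in cr breaker libraries, against 7.62, 6.60 and 4.18 CPM in WT breaker libraries. Its interaction was 1.74 ± 0.44 (adjusted p = 0.02141), with an adjusted p of 0.0501 and 0.0511 without cr mature green replicate 1 or 2. The 2 CAB13-type genes, of the Lhcb3 kind found in LHCII trimers, were lower at breaker in both genotypes but were not called different between cr and WT at either stage. Their changes in cr were -2.07 ± 0.52 and -1.83 ± 0.56, against -3.82 ± 0.55 and -4.02 ± 0.64 in WT. The first cr value was -3.52 without cr breaker replicate 1, and the second was -1.11 and no longer called without cr mature green replicate 3 (adjusted p = 0.167) or without cr breaker replicate 2 or 3 (0.0989 and 0.104). The first of them, Solyc12g011450.2, had 8.24 to 13.7 CPM in cr mature green libraries and 19.4 to 27.7 CPM in WT mature green libraries, groups that did not overlap, yet its adjusted p was 0.1633. Cab-5 was the 1 major LHCII gene whose stage change missed the threshold in cr, at -1.61 ± 0.58 (adjusted p = 0.05383). Its breaker call of 2.70 ± 0.81 (adjusted p = 0.02696) was lost without cr breaker replicate 1 (0.149) and without WT breaker replicate 1 or 3 (0.066 and 0.0741).

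The minor antenna proteins link LHCII trimers to the photosystem II core, and their 4 genes behaved in 2 ways. CP24 10A (Solyc01g105030.3, 85633660 to 85635047) had 135, 82.9 and 71.3 CPM in cr breaker libraries, against 24.2, 23.7 and 23.3 CPM in WT breaker libraries. At mature green the values were 158, 176 and 178 CPM in cr, against 171, 158 and 144 CPM in WT. The mature green groups overlapped, and at breaker the lowest cr library still lay well above the highest WT library. The stage change was -0.82 ± 0.18 in cr and -2.73 ± 0.19 in WT, with an interaction of 1.91 ± 0.26 (adjusted p = 0.0006348). At breaker cr exceeded WT by 2.02 ± 0.19 (adjusted p = 1.653e-05), the smallest adjusted p of any member in that comparison.

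CP24 10B (Solyc01g105050.3, 85639523 to 85640691) followed at a lower level. It had 73.1, 39.7 and 37.1 CPM in cr breaker libraries, against 10.2, 13.0 and 9.69 CPM in WT breaker libraries. At mature green it had 96.6, 99.2 and 109 CPM in cr libraries, against 90.1, 83.6 and 82.1 CPM in WT libraries. The groups did not overlap at either stage, but the mature green difference of 0.25 ± 0.20 did not pass the test (adjusted p = 0.5444). The interaction was 1.93 ± 0.30 (adjusted p = 0.00141) and the breaker difference 2.19 ± 0.22 (adjusted p = 3.248e-05).

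CP26 and CP29 moved less. CP26 (Solyc06g063370.3, chromosome 6, 37696470 to 37698631) had 213, 140 and 119 CPM in cr breaker libraries, against 109, 126 and 107 CPM in WT breaker libraries. In mature green fruit it had 235, 248 and 282 CPM in cr, against 244, 224 and 199 CPM in WT. The genotypes overlapped at both stages, and the breaker difference of 0.46 ± 0.18 did not pass the test (adjusted p = 0.07401). Its stage change was -0.70 ± 0.17 in cr (adjusted p = 0.009648) and -0.96 ± 0.18 in WT (adjusted p = 0.0006013).

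CP29 (Solyc09g014520.3, chromosome 9, 6156029 to 6158179) had 169, 113 and 123 CPM in cr breaker libraries, against 89.0, 90.3 and 84.4 CPM in WT breaker libraries. Mature green libraries held 218, 230 and 250 CPM in cr, against 179, 182 and 167 CPM in WT. The cr libraries were the higher ones at both stages, without overlap. The difference passed the test at breaker (0.62 ± 0.13, adjusted p = 0.00369) and not at mature green (0.40 ± 0.13, adjusted p = 0.09752). The stage change passed in cr (-0.79 ± 0.13, adjusted p = 0.0006828) and in WT (adjusted p = 3.536e-05), where means were 87.9 ± 3.09 CPM at breaker and 176 ± 7.60 CPM at mature green (SD, n = 3). The interaction of 0.21 ± 0.18 did not pass (adjusted p = 0.488).

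LHCB7 (Solyc04g082930.3, chromosome 4, 64380147 to 64380323) ran the other way. It had 27.7, 26.4 and 27.5 CPM in cr breaker libraries, against 33.6, 40.3 and 32.3 CPM in WT breaker libraries. At mature green it had 22.7, 22.1 and 21.7 CPM in cr libraries, against 14.7, 20.1 and 23.4 CPM in WT libraries. The WT breaker libraries were the highest of the 4 groups. It rose at breaker in WT by 0.87 ± 0.14 (adjusted p = 0.0002516), and its change in cr was 0.29 ± 0.14 (adjusted p = 0.1423). The interaction of -0.58 ± 0.20 had an adjusted p of 0.07696.

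CAB7 (Solyc10g006230.4, chromosome 10, 806192 to 810040), an Lhca2-type protein, was the most abundant photosystem I antenna gene. It had 306, 229 and 192 CPM in cr breaker libraries, against 93.0, 102 and 90.7 CPM in WT breaker libraries. At mature green the values were 369, 377 and 376 CPM in cr, against 301, 310 and 296 CPM in WT. The cr libraries were higher at both stages without overlap, by a margin that passed the test at breaker (1.35 ± 0.14, adjusted p = 3.267e-05) and not at mature green (0.31 ± 0.13, adjusted p = 0.2293). Its stage change was -0.63 ± 0.13 in cr and -1.67 ± 0.14 in WT, with an interaction of 1.04 ± 0.19 (adjusted p = 0.004012).

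LHCA4 (Solyc03g115900.5, chromosome 3, 59913520 to 59914965), which pairs with Lhca1 in the photosystem I belt, had the largest stage change in WT of any member with more than 3 counts in WT breaker. It had 10.1, 5.41 and 3.92 CPM in cr breaker libraries, against 0.655, 1.34 and 0.969 CPM in WT breaker libraries. In mature green fruit it had 22.8, 28.9 and 36.1 CPM in cr, against 40.0, 30.9 and 30.8 CPM in WT. At breaker even the lowest cr library was above the highest WT library, and the mature green groups overlapped. The stage change was -2.17 ± 0.29 in cr and -5.09 ± 0.36 in WT, with an interaction of 2.92 ± 0.47 (adjusted p = 0.001886).

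**Figure D5:**
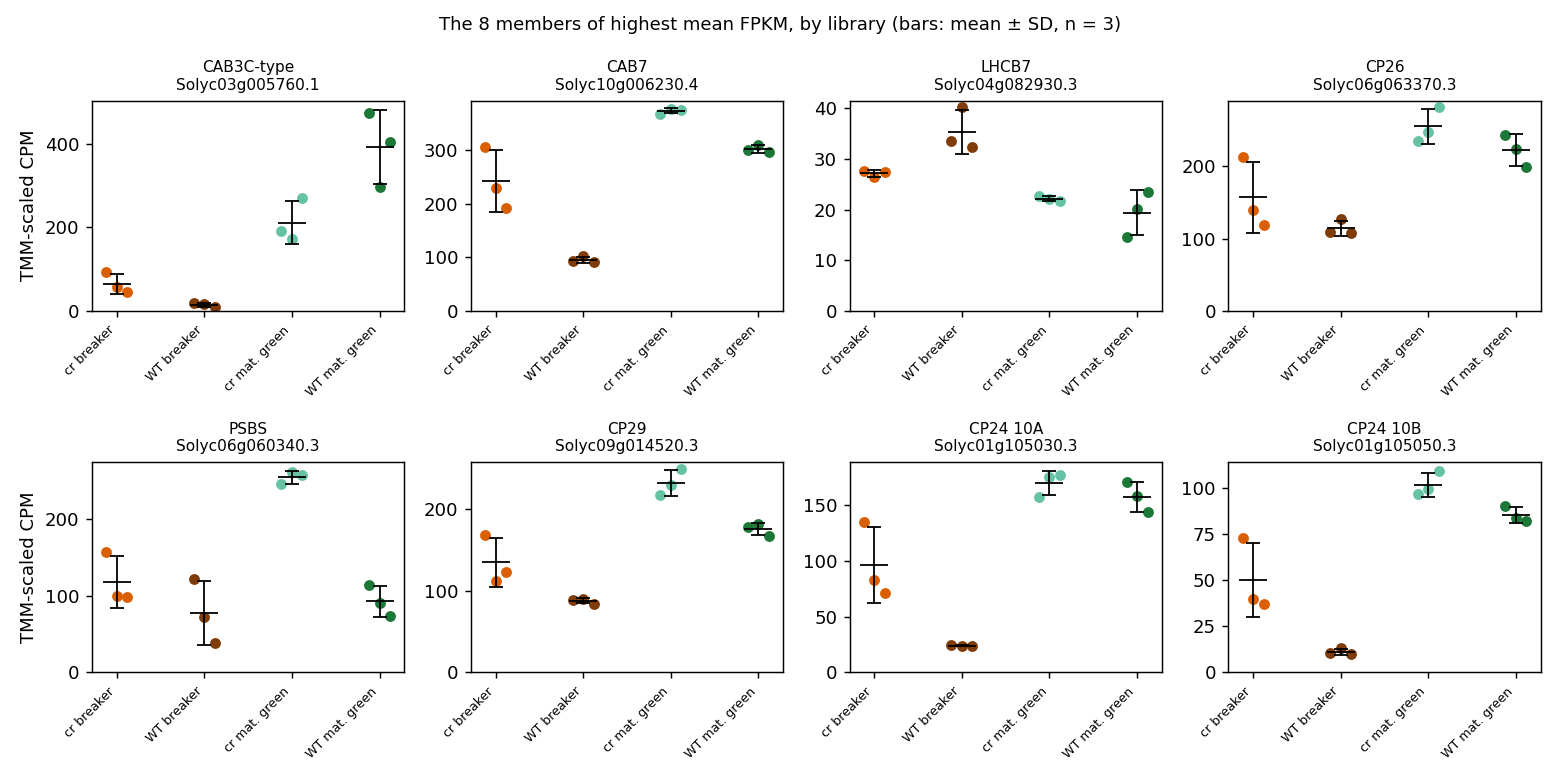
TMM-scaled CPM of the 8 members of highest mean FPKM in each library (points), with group mean ± SD (bars, n = 3), for cr breaker, WT breaker, cr mature green and WT mature green. CAB7 and CP24 10A and 10B are lowest in WT breaker, LHCB7 is highest there, and PSBS is highest in cr mature green, at 245 to 262 CPM.

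Of the other photosystem I antenna genes, CAB6A (Lhca1), CAB8 (Lhca3) and LHCA5, which is known in Arabidopsis for joining photosystem I to the NDH complex, were lower at breaker in both genotypes and higher in cr than WT at breaker. Their breaker differences were 1.84 ± 0.48, 1.42 ± 0.32 and 2.16 ± 0.33. CAB8 had an interaction of 1.49 ± 0.41 (adjusted p = 0.0306), for which leaving out any of 8 libraries in turn gave an adjusted p of 0.0504 to 0.0785. CAB6A lost its breaker call without cr breaker replicate 1 or WT breaker replicate 2 (adjusted p = 0.0581 and 0.0541). The stage change of LHCA5 in cr, -0.94 ± 0.29, was -1.43 without cr breaker replicate 1 and lost its call on leaving out any of the 5 other cr libraries (adjusted p = 0.0621 to 0.117). LHCA6, a relative of LHCA5 with the same role in Arabidopsis, and CAB8-type Solyc12g011280.2 passed no test. LHCA6 had 3.97 to 12.9 CPM in cr breaker libraries, against 3.57 to 4.90 CPM in WT breaker libraries, and CAB8-type had 1.77 to 2.44 CPM, against 1.17 to 3.27 CPM.

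PSBS (Solyc06g060340.3, chromosome 6, 36000748 to 36003894) binds to the antenna of photosystem II and switches on the heat loss of excess energy. It had 157, 99.0 and 98.4 CPM in cr breaker libraries, against 121, 72.3 and 38.0 CPM in WT breaker libraries. Mature green libraries held 245, 262 and 258 CPM in cr, against 114, 90.8 and 73.3 CPM in WT. The cr mature green libraries were the highest of all and closely grouped, and WT breaker spread widely. At mature green the difference between cr and WT was 1.46 ± 0.32 (adjusted p = 0.02385), and the call was lost on leaving out any of the mature green libraries other than WT replicate 1 (adjusted p = 0.0579 to 0.117). The stage change was -1.11 ± 0.32 in cr (adjusted p = 0.01892), lost on leaving out cr breaker replicate 2 or 3 or replicate 3 of cr mature green (adjusted p = 0.0508 to 0.0802), and -0.26 ± 0.32 in WT (adjusted p = 0.5194).

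OHP2 on chromosome 12 (Solyc12g056620.2, 62185970 to 62187715) opposed the antenna genes in every comparison in which it was called. OHP2 proteins are known in Arabidopsis as assembly factors of the photosystem II reaction centre. It had 14.5, 16.1 and 19.7 CPM in cr breaker libraries, against 30.1, 31.9 and 28.7 CPM in WT breaker libraries. At mature green the values were 7.05, 7.99 and 7.28 CPM in cr, against 10.1, 8.30 and 9.49 CPM in WT. The groups followed one another without overlap, with WT breaker highest and cr mature green lowest. At breaker it rose by 1.17 ± 0.13 in cr and by 1.70 ± 0.13 in WT (adjusted p = 5.033e-05 and 5.563e-07), and it was lower in cr than WT at breaker by -0.85 ± 0.12 (adjusted p = 0.0003747). The copy on chromosome 4 had 17.4 to 21.0 CPM in cr breaker libraries and 17.0 to 21.5 CPM in WT breaker libraries.

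LIL3.1 (Solyc08g007180.3, chromosome 8, 1749904 to 1753330) had 16.0, 14.0 and 15.5 CPM in cr breaker libraries, against 18.8, 22.7 and 18.7 CPM in WT breaker libraries. In mature green fruit it had 16.2, 14.1 and 14.2 CPM in cr, against 14.4, 14.1 and 16.7 CPM in WT. The WT breaker libraries alone stood above the rest. Its breaker difference of -0.40 ± 0.12 (adjusted p = 0.02472) and its WT stage change of 0.41 ± 0.12 (adjusted p = 0.01139) were small, and both were lost without scaling factors (adjusted p = 0.0998 and 0.135) and without WT breaker replicate 2 (0.114 and 0.0598). The breaker call was also lost without cr breaker replicate 2 or 3 (adjusted p = 0.0856 and 0.0576). LIL3.2 was lower at breaker in both genotypes, by -0.52 ± 0.13 in cr and -0.48 ± 0.13 in WT.

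Among the genes of mixed description, B-box-type Solyc05g056080.4 lies near CAB6A on chromosome 5 (64844070 to 64846212), and its Swiss-Prot match is CAB6A. It had 20.4, 7.77 and 8.46 CPM in cr breaker libraries, against 2.92, 4.26 and 4.48 CPM in WT breaker libraries. The breaker difference was 1.65 ± 0.32 (adjusted p = 0.002583), and 1.06 without cr breaker replicate 1. Its interaction of 1.55 ± 0.42 (adjusted p = 0.02913) was 0.95 without that library and had an adjusted p of 0.0551 to 0.0793 on leaving out any of 6 other libraries. CysRS-type and RCC1-type changed in WT by -0.26 ± 0.09 and -0.66 ± 0.24 (adjusted p = 0.025 and 0.03458), calls lost on leaving out any of 4 and 5 libraries (0.0569 to 0.103 and 0.051 to 0.132). Their values in cr, -0.21 ± 0.09 and -0.28 ± 0.23, did not pass.

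Replicate 1 of cr breaker stood apart from the other 2 libraries of its group in many of these values. It held the highest level of the 3 for 30 of the 34 members. Ripening genes ran the other way, with PG2A, the fruit polygalacturonase of softening, at 233, 696 and 1074 CPM in cr breaker replicates 1, 2 and 3. E8, an ethylene-responsive ripening gene, was at 3437, 7427 and 6744 CPM, and PSY1, the fruit phytoene synthase, at 3000, 6051 and 5855 CPM. Without this library, 10 members remained called higher in cr at breaker, 5 of the 15 calls being lost: Solyc03g005770.4, Solyc03g005780.3, Solyc02g070940.1, CAB6A and Cab-5. The interaction then gave 7 calls and the cr stage change 27 lower.

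The same ripening genes differed between the groups. Summed, PG2A, PSY1 and E8 ran from 6670 to 14173 CPM in cr breaker libraries and from 27789 to 29700 CPM in WT breaker libraries. At mature green the sum was 793 to 1217 CPM in cr and 1660 to 3182 CPM in WT. All 3 were called lower in cr at breaker, and PG2A and E8 were also called lower in cr at mature green. All 3 rose at breaker in both genotypes. On the log2 scale PSY1 rose by 2.89 ± 0.29 in cr and 3.29 ± 0.29 in WT. E8 rose by 4.14 ± 0.34 in cr and 2.96 ± 0.32 in WT, and PG2A by 7.37 ± 0.90 and 7.83 ± 0.89. None of the 3 had an interaction that passed the test (adjusted p = 0.5525 for PSY1, 0.08559 for E8 and 0.8222 for PG2A). Whether the higher antenna level of cr at breaker goes with its lower level of ripening transcripts was not tested apart from genotype, with which it cannot be told apart.

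Genes for other parts of the photosynthetic apparatus were set beside the antenna. Of 14 tested photosystem I subunit genes, all 14 were higher in cr than WT at breaker, all 14 were lower at breaker in WT and 10 were in cr, and 7 had a positive interaction, where the shares of all genes were 14.0%, 24.9%, 13.5% and 8.53%. Over all 34 members the median breaker difference was 1.39 as fitted and 1.23 with the bounds given above. Without the 4 copies that reached the count minimum in mature green libraries only, it was 1.21. That of the photosystem I subunit genes was 1.45. PsaD (Solyc06g054260.1), the most abundant of them, differed by 1.09 ± 0.15 (adjusted p = 0.0002913). A PsaH gene, Solyc12g044280.2, had the largest difference, 3.91 ± 0.54 (adjusted p = 0.0002643), and an interaction of 3.42 ± 0.66 (adjusted p = 0.00545).

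Photosystem II subunit genes, listed by description text, were called in both directions. Of 102 listed, 50 had no counts. Of 32 tested, 14 were higher and 1 lower in cr at breaker, where 14.0% and 11.0% of all genes were. At breaker 4 were higher and 9 lower in cr, and 7 were higher and 14 lower in WT, where the shares of all genes were 15.2% and 13.5% in cr and 23.4% and 24.9% in WT. A positive interaction was called for 2 and a negative one for 3, where 8.53% and 4.62% of all genes were. From so few calls no shift of the list is read. The median stage changes were -0.21 in cr and -0.20 in WT. At mature green 5 were higher and 0 lower in cr, where 1.72% and 2.62% of all genes were. The largest of these differences (1.26 ± 0.23, adjusted p = 0.01025) was of Solyc05g007780.3, described as a photosynthetic NDH subcomplex protein. The list is thus not limited to photosystem II subunits. PsbR (Solyc07g066310.3), the most abundant, passed no test, with a stage change of -0.20 ± 0.17 in cr and 0.21 ± 0.17 in WT.

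Chlorophyll synthesis genes, which supply the pigment that antenna proteins bind, were 7 higher and 3 lower in cr at breaker out of 20 tested, where 14.0% and 11.0% of all genes were higher and lower, so that the lower ones are near the share of all genes. At breaker 2 were higher and 8 lower in cr, and 6 higher and 9 lower in WT, where the shares of all genes were 15.2% and 13.5% in cr and 23.4% and 24.9% in WT. A protochlorophyllide reductase gene (Solyc12g013710.2) had the largest change, -3.03 ± 0.52 in cr and -5.32 ± 0.71 in WT, and was higher in cr at breaker by 3.09 ± 0.79 (adjusted p = 0.01194). ChlH (Solyc04g015750.3), a magnesium chelatase subunit, changed by -0.02 ± 0.14 in cr and 1.37 ± 0.14 in WT, and its interaction of -1.39 ± 0.20 passed the test (adjusted p = 0.0008658). Of the 20, 0 had a positive and 3 a negative interaction that was called, where 8.53% and 4.62% of all genes had. The median interaction of the list was -0.003, against 0.03 for all genes tested.

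Of 15 chlorophyll breakdown genes, which by their match text share 5 entries with the synthesis list, 5 were higher and 3 lower at breaker in cr, and 5 were higher and 5 lower in WT. Among all genes the shares were 15.2% and 13.5% in cr and 23.4% and 24.9% in WT, so with 15 genes no shift of the list is read from these counts. SGR1 (Solyc08g080090.3), the stay-green gene of chlorophyll removal, rose at breaker by 1.84 ± 0.24 in cr and 1.45 ± 0.24 in WT, and its breaker difference between cr and WT was -0.28 ± 0.24 (adjusted p = 0.4245). Pheophytinase (Solyc01g088090.3), which strips the phytol tail in chlorophyll breakdown, was lower in cr at breaker by -0.81 ± 0.18 (adjusted p = 0.005362).

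The chloroplast signal recognition particle carries antenna proteins to the thylakoid. Both of its subunit genes were called in all 4 pairwise comparisons, in which 4.34% to 48.3% of all genes were called. cpSRP43 (Solyc02g087400.1) was higher in cr by 1.08 ± 0.16 at breaker (adjusted p = 0.0004231) and by 0.66 ± 0.15 at mature green (adjusted p = 0.03136). It fell at breaker by 1.09 ± 0.15 in cr and by 1.51 ± 0.16 in WT on the log2 scale. cpSRP54 (Solyc09g009940.3) was higher in cr by 0.69 ± 0.13 at breaker and by 0.49 ± 0.13 at mature green (adjusted p = 0.001776 and 0.04581). It fell at breaker by 0.39 ± 0.13 in cr and by 0.59 ± 0.13 in WT, and its interaction of 0.20 ± 0.18 did not pass (adjusted p = 0.5217). At mature green, where both were called, PSBS was the only antenna member or relative called by edgeR over all 12 libraries. Of the 7 genes in this list, 5 were higher at breaker in WT, where 23.4% of all genes were. Neither of the 2 subunits was among these 5.

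GLK2 (Solyc10g008160.3), the transcription factor of the uniform ripening locus, is known to promote chloroplast development in green tomato fruit. It had 2.94, 1.72 and 2.44 CPM in cr breaker libraries, against 0.298, 0.642 and 0.485 CPM in WT breaker libraries. Mature green libraries held 7.78, 5.71 and 13.8 CPM in cr, against 11.8, 11.3 and 14.8 CPM in WT. The breaker groups did not overlap and the mature green groups did. The stage change was -1.94 ± 0.32 in cr and -4.71 ± 0.40 in WT, with an interaction of 2.77 ± 0.52 (adjusted p = 0.004449). The related Solyc07g053630.4, whose best match is Arabidopsis GLK1, fell at breaker by 1.78 ± 0.42 in cr and 2.15 ± 0.45 in WT on the log2 scale. APRR2-like (Solyc08g077230.3), a response regulator known for raising pigment in green fruit, rose by 1.94 ± 0.23 and 1.49 ± 0.23. An early light-induced protein gene (Solyc09g082690.3), of the same wider family as the antenna and known from stress, rose at breaker by 2.64 ± 0.51 in cr and 3.80 ± 0.53 in WT and was lower in cr at breaker by -1.60 ± 0.48 (adjusted p = 0.0265).

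Markers of other tissues were counted in the same way. Of 60 laccase and fasciclin-like genes, used for xylem, 18 had no counts and 21 were tested, and 11 of these were higher and 1 lower in cr at breaker, with 14 lower at breaker in WT, where 14.0%, 11.0% and 24.9% of all genes were. Their sum was 251 to 305 CPM in cr breaker libraries, 276 to 312 CPM in WT breaker libraries, 335 to 396 CPM in cr mature green libraries and 440 to 472 CPM in WT mature green libraries. Of 206 seed storage, oleosin and late embryogenesis genes, 80 had no counts and 64 were tested, and 9 of these were higher and 12 lower in cr at breaker, close to the 14.0% and 11.0% of all genes for the higher ones and above it for the lower ones. Their sum was 4157 to 5638 CPM in cr breaker libraries and 2989 to 3281 CPM in WT breaker libraries, against 6737 to 8142 CPM in cr mature green and 6210 to 9446 CPM in WT mature green libraries. A single late embryogenesis gene, Solyc09g075210.3, averaged 3465 CPM over all libraries. The part of these tissues in the antenna differences was not tested.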

How the data were processed

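Antenna transcripts were measured by RNA sequencing of Trizol-extracted pericarp. The authors deposited raw read counts per gene and, separately, FPKM values for the same 12 libraries. Tools listed in the submitters' processing notes, with no roles, are edgeR 3.22.5, DESeq2 1.20.0, featureCounts 1.5.0-p3, HISAT2 2.0.5 and fastp 0.23.1. The sources used here give neither the strand nor the multi-mapping setting. Coordinates are on SL4.0, per the chromosome names in the deposited count table.

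From the deposited counts, genes were filtered with filterByExpr (min.count 10, min.total.count 15), which kept 99.949% of counts, scaled by TMM and tested in edgeR 4.0.16 (R 4.3.3) with glmQLFit and glmQLFTest, using 1 coefficient for each of 4 groups over 12 libraries. Benjamini-Hochberg adjustment ran over all 19664 genes within each of 5 comparisons, and adjusted p under 0.05 was called. The common biological coefficient of variation was 0.155. Standard errors are the log2 fold change over the root of F. CPM compares a gene between libraries, and FPKM compares genes. Ratios with 1 to 3 counts carry exact binomial intervals at 95%, and both these and the floor (3 counts summed over a group's libraries) cover counting error only. Group values are mean ± SD.

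Values in every library are given for the 8 members of highest mean FPKM, the 2 called members of largest change each way in each comparison and up to 3 called against the majority. CAB4, B-box-type, Solyc02g070940.1 and GLK2 were given in addition after their values were seen. Members, gene lists and tests were chosen with earlier results of these data known. The code was tested on simulated counts. Replicates of a group correlated at 0.977 to 0.986, and every pair within a group differed by more than sampling noise (chi-square per degree of freedom 9.85 to 37.5). No library column was left unused, and a table of unannotated transcripts was not used here.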

Additional observations from a re-analysis of the deposited data

Results flagged for a closer look

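For 8 members the change at breaker differed between the genotypes by the interaction test itself (edgeR, Benjamini-Hochberg over all genes, log2, breaker minus mature green in cr minus the same in WT). The values were 3.08 ± 0.42 (SE, adjusted p = 0.0006725) for CAB3C-type Solyc03g005760.1, 2.92 ± 0.47 (0.001886) for LHCA4, 1.93 ± 0.30 (0.00141) for CP24 10B and 1.91 ± 0.26 (0.0006348) for CP24 10A. They were 1.74 ± 0.44 (0.02141) for CAB4, 1.55 ± 0.42 (0.02913) for B-box-type, 1.49 ± 0.41 (0.0306) for CAB8 and 1.04 ± 0.19 (0.004012) for CAB7. All 8 fell at breaker in both genotypes, and each fell less in cr.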

How the results depend on the processing

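Reversal under all alternative runs was counted for the members picked by rule for values in every library, and none was found. CAB4, B-box-type and Solyc02g070940.1, added later, were not in that count. On leaving out 1 library, no call of any member reversed. Of the member calls, 0 of 1 in cr against WT at mature green, 11 of 17 in cr against WT at breaker, 20 of 27 in the cr stage change, 25 of 30 in the WT stage change and 5 of 8 in the interaction were kept in every refit, not counting the stricter limits on p and on log2 size. At mature green the 1 member higher in cr became 0 at an adjusted p under 0.01 and without WT mature green replicate 3 and cr breaker replicate 1 together, 4 with DESeq2, 4 with only the 2 groups compared, and 0 to 4 on leaving out each library. The 0 lower became 2 with only the 2 groups compared, 1 without both libraries, and 0 to 1 on leaving out each library. At breaker the 2 lower in cr became 1 at an adjusted p under 0.01, 0 with a log2 size of at least 1, 1 without scaling factors, and 1 to 3 on leaving out each library. The 15 higher stayed within 10 to 18. In the stage changes, the 1 higher in cr became 2 with only the 2 groups compared, and the 3 higher in WT became 1 with a log2 size of at least 1. The 8 positive interactions became 5 at an adjusted p under 0.01, 13 with DESeq2, and 5 to 11 on leaving out each library. The 0 negative interactions became 1 with limma on log2(FPKM + 1), 1 without both libraries, and 0 to 1 on leaving out each library. The cause of these shifts was not tested. Shares of all genes with DESeq2 and with only the 2 groups compared were not counted.

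Leaving out a library moved the stage change in cr by over 1.5 times for 7 members. Without cr breaker replicate 1, LHCA5 was -1.43 in place of -0.94, Solyc12g011450.2 -3.52 in place of -2.07, Solyc03g005780.3 -5.20 in place of -3.38, Solyc02g070950.1 -3.91 in place of -2.28 and Solyc02g070980.1 -5.47 in place of -3.36. Without cr mature green replicate 3, Solyc07g063600.3 was -1.11 in place of -1.83 and Solyc02g070990.1 -2.19 in place of -3.46.

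Without scaling factors the median of all genes shifted by -0.198 in the WT stage change and 0.132 at breaker. The share of calls that were higher in the WT stage change was 48.4% with TMM, 37.5% with upper quartile factors and 29.6% without factors, and in the cr stage change it was 53.1% with TMM and 37.5% without. At breaker it was 56.0% with TMM and 74.9% without factors, and in the interaction 64.9% and 78.7%.

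The deviations of 18 same-numbered pairs of libraries correlated at -0.152 to 0.0799. No pairing by replicate number was thus seen, which does not show that there was none. With the replicate number as a block, 14 members were higher in cr at breaker, 26 lower in the cr and 26 in the WT stage change, and 7 interactions were positive. Counts in WT breaker limit single CAB1B-type copies, 3 of which had none. Summing members of high protein identity and the planned search for promoter motifs were not run, because no sequences were used here.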
